A study of Arabidopsis thaliana with 6 samples.

Results

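The regions described here are 352 peaks of SEPALLATA3 (SEP3) binding that lay in the long stretches between genes of Arabidopsis thaliana and were called in plants with either form of the protein. They were selected from the 2225 peaks of the wild-type list by 3 criteria, namely a width of at most 1000 bp, an overlap of at least 1 bp with a peak of the tetramerization-deficient list, and a wild-type summit more than 1000 bp from the edge of every protein-coding gene. They make up 15.8% of the wild-type list and are called shared distal peaks below. Of the 393 wild-type peaks that met the width and distance criteria, 352 (89.6%) overlapped a peak of the other list, beside 83.6% of the 2051 wild-type peaks up to 1000 bp wide at any distance. The selection used the overlap, so nothing is read from these shares.

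SEP3 is a MADS-domain transcription factor of the floral E class that acts with the A-, B- and C-class proteins to set the identity of sepals, petals, stamens and carpels. MADS-domain proteins bind CArG-box DNA as dimers. A pair of dimers can join into a tetramer that holds a pair of DNA sites and loops the DNA between them, and SEP3 is known as a partner that promotes this assembly. Regulatory DNA far from a gene is of interest for such complexes because looping can bring distant sites together.

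The chromatin came from inflorescences (about 1 g per sample) taken at 22 °C under long days of 16 h light and 8 h dark. All plants carried the sep1,2,3 background and a rescue transgene under the SEP3 promoter, either pSEP3:SEP3wt with the wild-type protein or pSEP3:SEP3tet with a SEP3 impaired in tetramer formation. The 6 samples comprise, for each line, 2 precipitations with an antibody to native SEP3 and 1 mock precipitation with pre-immune serum. The comparison asks which regions SEP3 occupies with normal and with impaired tetramer formation. The data analysed were 1 peak list per line, with 2225 peaks (SEP3wt) and 3601 peaks (SEP3tet) on TAIR10 coordinates. Sequencing depth is unknown, mock signal was not analysed here, and 1 list per line leaves no measure of replicate spread, so no test was made. An inflorescence holds many cell types, and a region bound strongly in few cells cannot be told apart from one bound weakly in many.

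The distance limit cut through a continuous range of positions. Just inside it lay a peak between LARP1c and FD at 1009 bp from LARP1c (fold enrichment 2.83 in the SEP3wt list and 4.47 in the SEP3tet list), a peak 1011 bp from the nearer of KUP11 and AT2G35070 (4.12 and 6.16), and a peak 1013 bp from the nearer of BON2 and AT5G07310 (3.54 and 3.65). Just outside it lay peaks between LAC10 and AT5G01200 at 994 bp (3.27 and 2.98), between WRKY22 and AT4G01245 at 995 bp (3.21 and 4.04), and between AT2G21640 and MEE3 at 1000 bp (5.98 and 7.41). A further 3 overlapping peaks beyond 1000 bp were left out for their width, between SEP3 and AT1G24265 (1322 bp), between MST1 and AGC1.7 (5224 bp) and between AT2G21210 and AT2G21220 (1047 bp).

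In the SEP3wt list, fold enrichment of the 352 shared distal peaks ran from 2.51 to 10.4, with a median of 3.70 and quartiles of 3.10 and 4.60. Each fold is the authors' own ratio at the summit, that of ChIP signal over the background their peak caller assumed. Shared peaks of the same width limit had a SEP3wt median of 3.59 within 1 kb of a gene (n = 737) and 3.27 inside gene bodies (n = 626). The 41 distal SEP3wt peaks that overlapped no SEP3tet peak had a median of 3.00. Distal regions thus covered much the same range of fold as shared peaks nearer to genes, and gene bodies had the lowest median of the 3 shared classes.

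The SEP3tet peaks that overlapped these regions had folds of 2.18 to 11.9, with a median of 4.81 and quartiles of 3.81 and 6.11. The SEP3tet medians of the other shared peaks were 4.66 within 1 kb and 4.01 in gene bodies, the same order as in the SEP3wt list. A SEP3wt fold of at least 5 was found in 72 distal regions (20.5%), against 130 within 1 kb (17.6%) and 62 in gene bodies (9.90%). A SEP3tet fold of at least 5 was found in 162 distal regions (46.0%), against 308 within 1 kb (41.8%) and 194 in gene bodies (31.0%). Values of the 2 lists stand side by side, since each list was called separately.

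**Figure D1:**
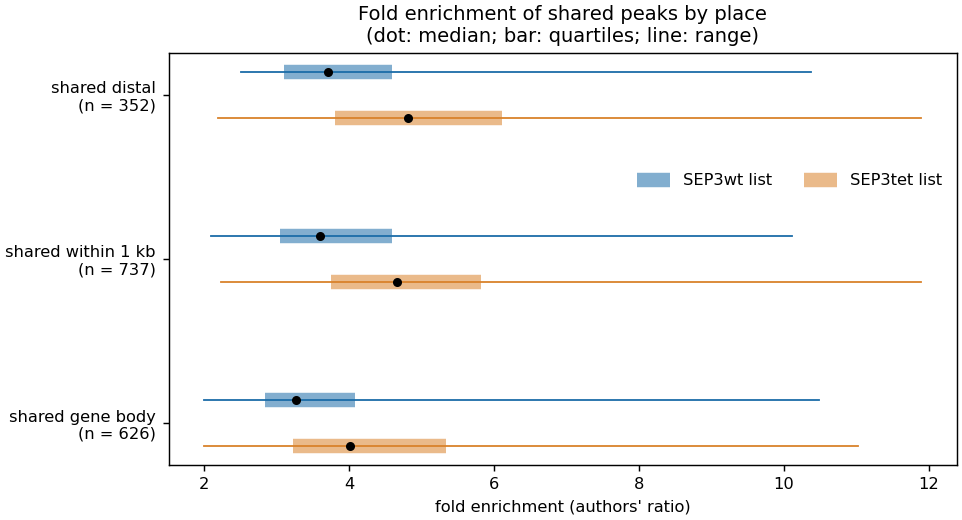
Fold enrichment (x axis, the authors' ratio) of shared peaks up to 1000 bp wide, by place of the SEP3wt summit, with dots for medians, bars for quartiles and thin lines for the range. Distal medians of 3.70 (SEP3wt) and 4.81 (SEP3tet) sit beside 3.59 and 4.66 within 1 kb and above 3.27 and 4.01 in gene bodies.

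The selection limited the SEP3wt width and required an overlap, which in part sets the widths and the distances between summits of both lists. The SEP3wt width had a median of 256.5 bp (120 to 982 bp) and the SEP3tet width a median of 356 bp (137 to 1467 bp), with 304 of the 352 wider in the SEP3tet list. The SEP3wt and SEP3tet summits lay a median of 21 bp apart, with quartiles of 10 and 42.25 bp. They were within 50 bp of each other in 286 of 352 regions (81.2%) and within 100 bp in 334 (94.9%). Within 100 bp lay 92.4% of shared peaks within 1 kb of a gene and 76.8% of those in gene bodies, where the median separation was 33 bp. The SEP3tet summit was itself more than 1000 bp from every gene in 347 regions and within 1 kb in the other 5. Each region overlapped exactly 1 SEP3tet peak, and 350 SEP3tet peaks were involved because 4 regions shared theirs with another.

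Regions that ranked high in one list mostly ranked high in the other. The Spearman correlation of fold over the 352 regions was 0.639, beside 0.639 over the 737 shared peaks within 1 kb and 0.539 over the 626 in gene bodies. These are descriptions across peaks that share their libraries. Of the 10 regions with the highest fold in each list, 6 were in both, and of the top 20, 13 were. The printed SEP3wt fold exceeded the SEP3tet fold in 57 of 352 regions (16.2%), against 16.8% within 1 kb and 23.0% in gene bodies.

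**Figure D2:**
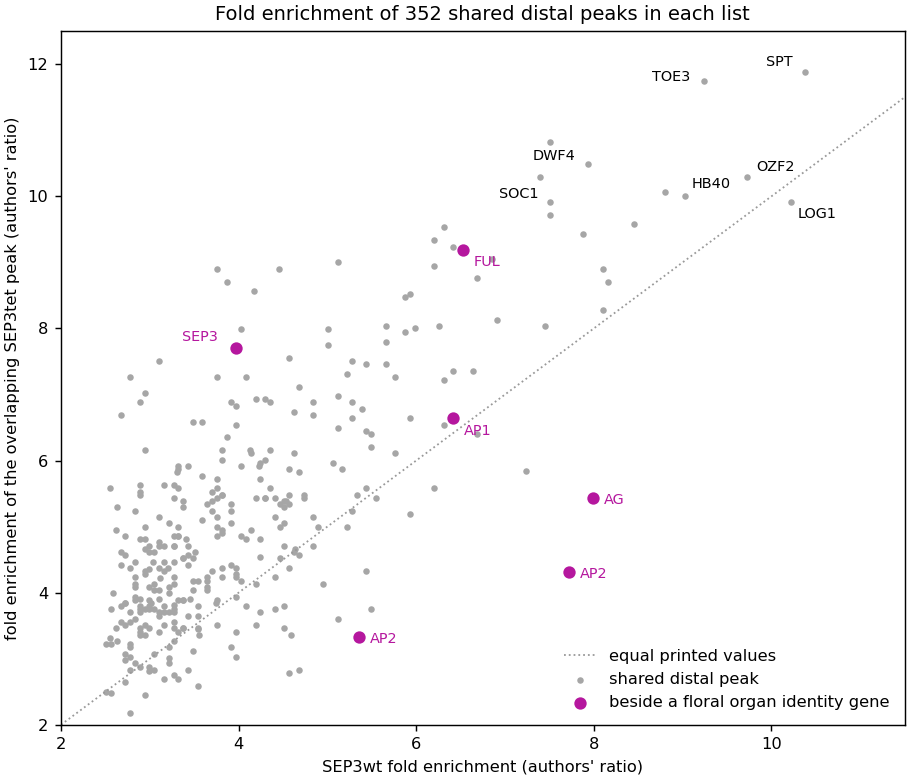
Fold enrichment of each of the 352 shared distal peaks in the SEP3wt list (x axis) against the overlapping SEP3tet peak (y axis), both the authors' ratio, with regions beside floral organ identity genes in magenta and a dotted line at equal printed values. Most points lie above the line and SPT is at the top in both lists, while AG and both AP2 regions lie below the line.

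The strongest distal region in both lists lay beside SPATULA (SPT), which encodes a bHLH factor that forms the carpel margins, style and stigma. It spans chromosome 4, 17408819 to 17409800, with its summit 4.62 kb from SPT and 5.02 kb from AT4G36925 on the other side. Its fold was 10.4 in the SEP3wt list and 11.9 in the SEP3tet list. The gene table used gives no strand, so distances are to the nearer gene edge and do not say whether a summit lies before or after a gene.

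Second in the SEP3wt list was a region between LOG1 and SYD. LOG1 encodes a cytokinin-activating enzyme and SYD a SWI/SNF chromatin-remodelling ATPase. The region lies on chromosome 2, 12078285 to 12078780, 2.48 kb from LOG1, with a fold of 10.2 (SEP3wt) and 9.91 (SEP3tet). The third lay 1.45 kb from OZF2, a CCCH zinc-finger gene, on chromosome 4, 14394575 to 14395169, with folds of 9.73 and 10.3. The fourth, on chromosome 5, 26805341 to 26805909, lay between TOE3, an AP2-family gene targeted by miR172, and DEAR2, a DREB-type gene, with folds of 9.24 and 11.7, the latter second in its list. All 4 regions stood at least 9.24-fold over background in the SEP3wt list.

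The next 4 had SEP3wt folds of 8.16 to 9.02. HB40, a homeodomain-leucine zipper gene, had a region 3.46 kb away on chromosome 4, 17319624 to 17320136 (9.02 SEP3wt, 10.01 SEP3tet). SAUR15 and AT4G38860, a pair of auxin-induced SAUR genes, flanked chromosome 4, 18127795 to 18128659 (8.81 and 10.1). GA2OX1, whose enzyme inactivates gibberellins, lay 2.67 kb from chromosome 1, 29515506 to 29515938 (8.45 and 9.58). AFB2, which encodes an auxin receptor F-box protein, lay 2.12 kb from chromosome 3, 9865288 to 9865814 (8.16 and 8.71).

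The last 4 of the 12 strongest had SEP3wt folds of 7.94 to 8.10. DIS2, a gene of the actin-nucleating ARP2/3 complex, had a region 1.15 kb away on chromosome 1, 10959487 to 10959998 (8.10 SEP3wt, 8.28 SEP3tet). CYP707A3, which encodes an abscisic acid hydroxylase, shared chromosome 5, 18378612 to 18379229 with the nearer AT5G45350 (8.10 and 8.90). DWF4, which encodes a rate-limiting brassinosteroid hydroxylase, lay 4.16 kb from chromosome 3, 18809485 to 18810087 (7.94 and 10.5), and AT3G50650 1.55 kb from it. The eleventh lay beside AGAMOUS and is described with the floral organ identity genes. Of these 12 regions, those of LOG1 and AG had the higher printed fold in the SEP3wt list.

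The first protein-coding gene to the left and to the right of each summit gave 633 flanking genes, 2.31% of the 27444 protein-coding genes and 5.88% of the 10762 that border a gap longer than 2 kb, where such a peak can lie. Of 140 genes in 9 lists, 33 flanked a shared distal peak and 19 were the nearest gene. The lists were picked with earlier results of these data known and hold well-known developmental genes, so their shares are a description. Of the 15 housekeeping genes listed for comparison, 2 (13.3%) flanked one, TUB2 (5.78 kb, folds of 5.49 SEP3wt and 6.40 SEP3tet) and CYP5 (3.96 kb, 3.30 and 5.82). None of the 7 listed cold and ethylene response factors did. Of those, 6 border a gap over 2 kb, and at 5.88% of such genes a count of 0 in so few is no result about these factors. Related genes outside that list did flank a region, namely the DREB-type gene DEAR2 (9.24 SEP3wt, 11.7 SEP3tet) and 3 of 26 genes with an ERF symbol.

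Of 14 floral organ identity genes, 5 flanked 6 regions, and 11 border a gap over 2 kb. APETALA1 (AP1), the A-class gene that also sets floral meristem identity, had a region 1.62 kb away on chromosome 1, 25987694 to 25988173, with folds of 6.42 (SEP3wt) and 6.64 (SEP3tet). FRUITFULL (FUL), the AP1 relative that acts in fruit valves, had one 2.32 kb away on chromosome 5, 24508378 to 24508879, with folds of 6.53 and 9.19. Among the 352 regions the FUL region ranked 26th in the SEP3wt list and 17th in the SEP3tet list. The AP1 region ranked 28th and 71st.

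The regions beside AGAMOUS (AG), the C-class gene of stamens and carpels, and APETALA2 (AP2), the A-class gene that restricts AG to the inner whorls, ranked much higher in the SEP3wt list than in the SEP3tet list. The AG region, 1.59 kb from the gene on chromosome 4, 10381018 to 10381469, had folds of 7.99 (SEP3wt) and 5.43 (SEP3tet) and ranked 11th and 132nd. The nearer AP2 region, 1.65 kb away on chromosome 4, 17398748 to 17399160, had folds of 7.72 and 4.31 and ranked 14th and 220th. The farther AP2 region, 2.69 kb away on chromosome 4, 17397351 to 17398118, had folds of 5.36 and 3.32 and ranked 57th and 317th. On the other side of AP2, a shared peak within 1 kb of AT4G36925, and so not distal, had folds of 6.47 (SEP3wt) and 7.75 (SEP3tet).

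By the authors' −log10 q in place of fold, the AG region ranked 11th and 42nd (values of 36.0 and 29.2). The nearer AP2 region ranked 14th and 85th (33.3 and 19.4) and the farther one 50th and 175th (17.9 and 11.9). The drop in rank was thus smaller by q than by fold at both genes. The same gap between LEJ2 and AP2 held a distal SEP3wt peak with no SEP3tet overlap, on chromosome 4, 17395482 to 17396090, with a fold of 7.58, the highest of the 41 such peaks. With 1 list per line, whether these rank differences exceed the spread between replicates was not tested.

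At SEP3 itself the order was the other way. The region, 2.75 kb from SEP3 and nearer to AT1G24265, on chromosome 1, 8598335 to 8599163, had folds of 3.97 (SEP3wt) and 7.70 (SEP3tet) and ranked 139th and 41st. By −log10 q (28.6 and 48.5) it ranked 21st and 5th, so the difference in rank was smaller by q here too and the region was among the higher ones of both lists. The rescue transgenes carry SEP3 promoter sequence, and reads of the transgene and of the native locus cannot be told apart in a peak list.

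**Figure D3:**
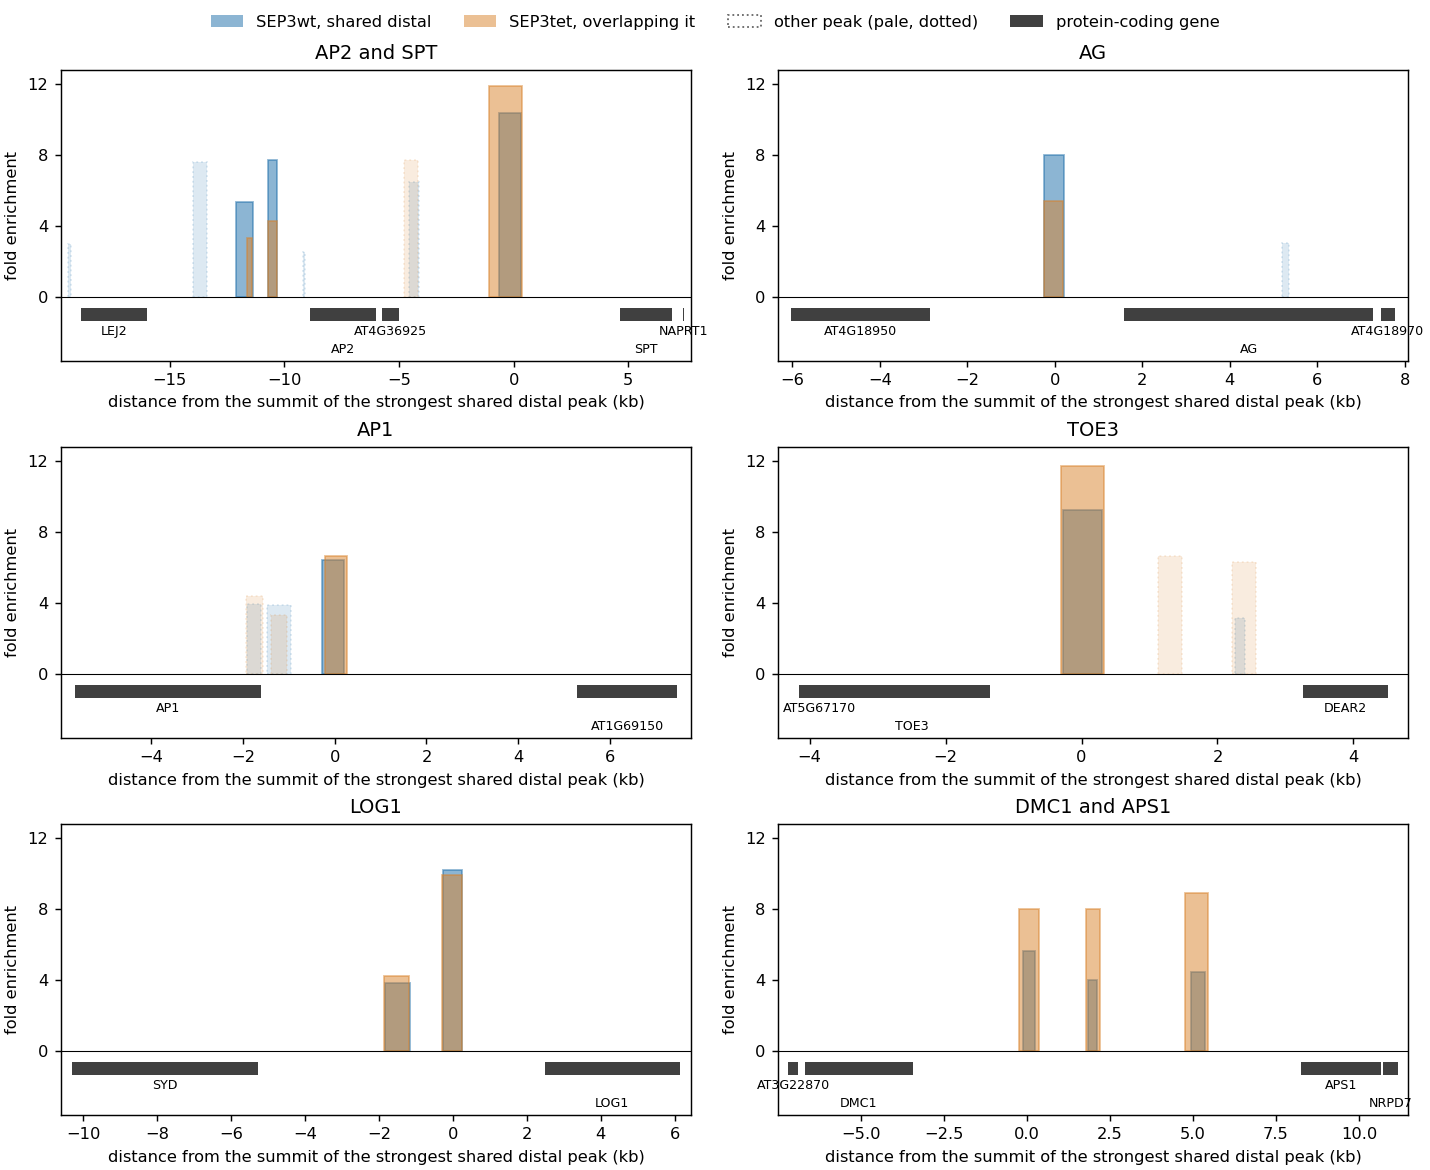
Peaks around 6 loci, with distance from the summit of the strongest shared distal peak in kb (x axis) and fold enrichment (y axis, the authors' ratio), SEP3wt in blue, SEP3tet in orange, other peaks pale and dotted, and protein-coding genes as dark bars. For the shared distal peaks of AP2 and AG the blue bars are the taller (7.72 against 4.31 and 7.99 against 5.43). At TOE3 and in the gap of DMC1 and APS1 the orange ones are, and at AP1 and LOG1 they are nearly equal.

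Of 24 flowering regulators, 8 flanked a shared distal peak and 2 were the nearest gene. SOC1, the MADS-box integrator of flowering signals, had a region 1.98 kb away on chromosome 2, 18812927 to 18813495, with folds of 7.50 (SEP3wt) and 9.91 (SEP3tet). TOE1, another miR172-targeted AP2-family repressor, flanked a pair of regions, at 4.25 kb on chromosome 2, 12232698 to 12233006 (6.69 and 8.76), and at 5.73 kb on chromosome 2, 12234129 to 12234546 (5.93 and 8.52). SMZ, of the same family, had one at 2.63 kb on chromosome 3, 20378836 to 20379342 (5.66 and 7.79). With TOE3 and AP2, 4 genes of the AP2 and TOE group therefore flanked distal regions. In the SEP3tet list the TOE1, TOE3 and SMZ regions had folds of 7.79 to 11.7 against 3.32 and 4.31 for the distal AP2 regions. Their SEP3tet −log10 q values were 30.2 to 57.6 against 11.9 and 19.4. The AP2 q values were high for their folds, as given above. The weaker regions of the list lay beside the RAV-type repressors TEM2 (4.03 and 4.18) and TEM1 (3.05 and 3.07) and the MADS-box gene AGL18 (2.89 and 3.75), of which TEM1 and AGL18 were named after their values were seen. The bZIP gene FD, the partner of the florigen FT, flanked the LARP1c region at 2.48 kb.

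Of 18 floral meristem and carpel genes, 3 flanked a distal region, and each was the nearest gene. Beside SPT these were ETTIN (ETT), an auxin response factor that patterns the gynoecium, at 2.43 kb on chromosome 2, 14331258 to 14331599 (4.57 SEP3wt, 5.34 SEP3tet), and IND, a bHLH gene of the fruit valve margin, at 1.79 kb on chromosome 4, 44925 to 45058 (2.89 and 2.88). The SPT region was the first of the 352 in both lists, and the IND region ranked 304th and 336th.

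Of 25 genes of organ growth, boundary and polarity, 7 flanked a distal region and 4 were the nearest gene. All of these regions had SEP3wt folds between 2.67 and 4.24. AS1, a MYB gene that represses KNOX genes in organs, had the strongest SEP3wt value at 1.13 kb on chromosome 2, 15784272 to 15784698 (4.24 SEP3wt, 5.72 SEP3tet). The CIN-type TCP genes TCP10 (9.02 kb, 3.65 and 5.34) and TCP5 (3.36 kb, 3.43 and 5.92), which limit cell division in leaves and petals, came next. The adaxial HD-ZIP III genes PHB (1.21 kb, 3.27 and 3.70) and PHV (1.04 kb, 3.16 and 5.63) each had 1 region. The growth-promoting zinc-finger gene JAG followed at 2.38 kb (2.89 and 5.53). TCP10, TCP5, PHV and JAG thus had SEP3tet folds above the SEP3tet median of 4.81 and SEP3wt folds below the SEP3wt median of 3.70. The seventh gene, KAN1, an abaxial identity gene, lay 8.31 kb from a weak region (2.67 and 3.55) and was added to the named genes after its value was seen.

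Of 11 stamen and pollen genes, 3 flanked a distal region, and only MYB21 was the nearest gene. EMS1, a receptor kinase gene needed for the tapetum, had one at 2.75 kb on chromosome 5, 2291429 to 2291750 (4.84 SEP3wt, 6.69 SEP3tet). DAD1, which encodes a lipase of jasmonate synthesis in stamens, had one at 6.36 kb on chromosome 2, 18471792 to 18472139 (4.68 and 7.12), and MYB21, a jasmonate-responsive gene of stamen growth, one at 1.77 kb on chromosome 3, 10304009 to 10304143 (3.27 and 4.86). Of 13 auxin genes, 2 did, the kinase gene PID at 1.68 kb (3.81 and 4.95) and the response factor ARF6 at 5.00 kb (3.43 and 2.83). ARF6 was among the few listed genes with the higher printed SEP3wt value.

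Of 13 cytokinin and gibberellin genes, 3 flanked a distal region, and both LOG1 and GA2OX1 flanked a pair. The second LOG1 region, 3.77 kb from the gene on chromosome 2, 12076699 to 12077382, had folds of 3.81 (SEP3wt) and 4.23 (SEP3tet), far below the first. The second GA2OX1 region, 1.33 kb from the gene on chromosome 1, 29514351 to 29514495, had folds of 3.10 and 4.71. The stronger GA2OX1 region was the more distant of its pair, and the stronger LOG1 region was the nearer. CKX3, a cytokinin oxidase gene, lay 4.62 kb from a region on chromosome 5, 23052815 to 23053024 (3.51 and 4.61), with AT5G56980 nearer.

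**Figure D4:**
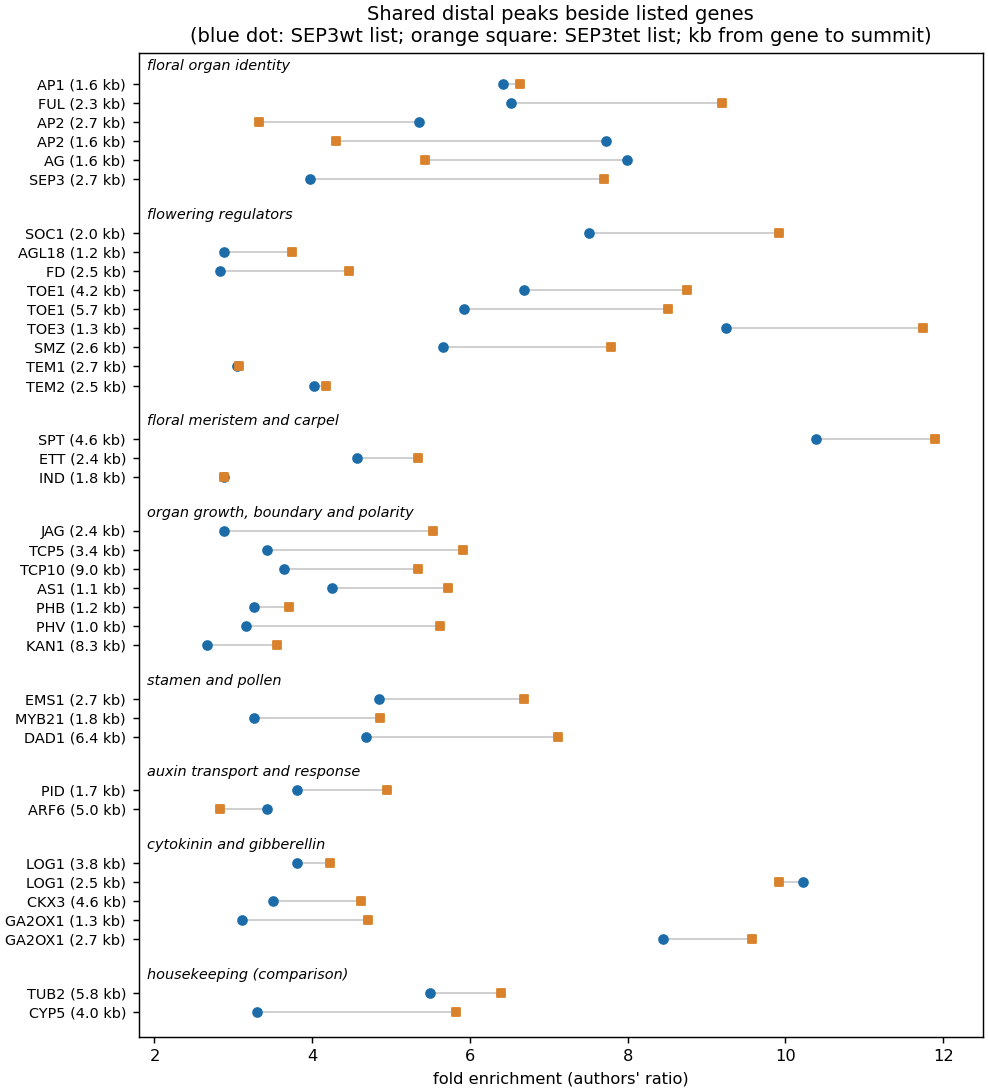
Fold enrichment (x axis, the authors' ratio) of each shared distal peak beside a listed gene, SEP3wt as blue dots and SEP3tet as orange squares, with the distance from gene to summit in kb after the name and genes grouped by list. SPT has the highest values of both lists (10.4 and 11.9), and AP2, AG, ARF6, IND and the nearer LOG1 region are those with the blue dot to the right.

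Gene families defined by symbol had from 0% to 18.2% of their genes beside a distal region. For TCP genes this was 4 of 22, for MYB genes 16 of 125 and for SAUR genes 7 of 80. Of these families 15, 104 and 42 genes border a gap over 2 kb, and 5.88% of all such protein-coding genes flanked a region. WRKY genes had 1 of 72, WRKY57 (4.41 SEP3wt, 3.75 SEP3tet), and genes with a bHLH symbol had 1 of 11, BHLH32. Such a gap is bordered by 51 of the WRKY genes and 7 of the bHLH genes. None of 18 SPL and none of 9 growth-regulating factor (GRF) genes flanked a distal region. Of these, 9 and 7 border a gap over 2 kb, and at 5.88% of such genes overall a count of 0 in so few is no result about these families.

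Among MYB genes the strongest region lay 1.22 kb from PAP1, an activator of anthocyanin synthesis, on chromosome 1, 21232087 to 21232548 (7.88 SEP3wt, 9.43 SEP3tet). The related genes MYB114 and MYB90 flanked 1 region on chromosome 1, 24760401 to 24760900 (5.87 and 8.47). BRC1, a TCP gene that holds axillary buds back, flanked a close pair on chromosome 3, at 6380572 to 6381021 (6.42 and 7.36) and at 6380051 to 6380452 (5.11 and 3.60). The class I gene TCP15 flanked another pair with lower values (3.38 and 3.89, 2.78 and 2.83). Of SAUR genes other than SAUR15, AT2G18010 shared a region with TAF14 on chromosome 2, 7832298 to 7832862 (6.85 and 9.05). AT5G01830, counted here only for its symbol SAUR21 in the gene table used, had one with folds of 4.63 and 4.61.

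Of NAC genes 6 of 99, of ERF genes 3 of 26 and of Aux/IAA genes 3 of 32 flanked a distal region. A gap over 2 kb is bordered by 62, 19 and 24 of them, and 5.88% of all such protein-coding genes flanked one. The counts are small and no test was made, so they are no result about these families. The region of NAC080 had folds of 3.97 (SEP3wt) and 3.94 (SEP3tet), and that of NAC023 had 3.54 and 4.18. NAC046 and NAC047 flanked a region on chromosome 3, 1058048 to 1058172, with folds of 3.10 and 7.51. The ERF region with the highest SEP3wt fold was the one between BON2 and AT5G07310 (3.54 and 3.65). The ERF38 region had folds of 2.67 and 6.69, and the ERF15 region had 2.83 and 4.13. The IAA8 region (2.58 and 3.99) and the region between IAA2 and IAA7 (3.10 and 3.65), genes of auxin-labile repressors, were below the median in both lists. NAC046, NAC047 and ERF38 thus had SEP3tet folds above the SEP3tet median of 4.81 and SEP3wt folds below the SEP3wt median of 3.70. NAC046 and NAC047 flank the same region. Here too the share of all regions so placed was not counted, and nothing is read from it.

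Distance here was measured to protein-coding genes, and some of the regions lay at other genes. A non-coding gene was within 1 kb of 83 summits (23.6%), and 33 summits (9.38%) lay inside one, of which 27 were inside a long non-coding RNA gene. The table holds 326 microRNA genes, and 6 summits were within 1 kb of one. How much of the space over 1 kb from protein-coding genes lies this near to non-coding genes was not counted, nor were other peaks. These counts therefore do not say whether the regions lie at such genes more often than the space around them.

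Of these microRNAs, miR172 acts on genes named above. MIR172b, a precursor of miR172, which silences AP2 and the TOE genes, had a summit 591 bp away on chromosome 5, 1187192 to 1187830, with folds of 3.92 (SEP3wt) and 5.34 (SEP3tet). MIR169c, of the family that targets NF-YA genes, had one 738 bp away (4.54 and 5.39). MIR159a, of the family that targets GAMYB-like genes, had a pair at 642 and 314 bp (3.00 and 2.89 SEP3wt) that overlapped the same SEP3tet peak (3.46). MIR403 and MIR168a, which target the Argonaute genes AGO2 and AGO1, had 1 each, at 174 bp (3.27 and 3.81) and 692 bp (2.72 and 4.57). TAS3, the source of small RNAs against ETT and its relatives, had a pair at 108 bp (3.10 and 4.76) and 907 bp (3.27 and 3.55). Except for MIR169c and MIR172b, the SEP3wt fold of these regions was below the median of 3.70.

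Most of the shared distal peaks were not far from the limit. The distance to the nearest protein-coding gene had a median of 1.65 kb, with quartiles of 1.32 and 2.35 kb and a range of 1.01 to 10.1 kb. The gap between the flanking genes had a median of 5.39 kb (2.18 to 37.4 kb). Fold did not fall steadily with distance. The SEP3wt median was 3.76 for the 134 regions at 1 to 1.5 kb, 3.65 for 91 at 1.5 to 2 kb, 3.75 for 80 at 2 to 3 kb and 3.65 for 47 beyond 3 kb. The SEP3tet medians in the same bins were 5.12, 4.33, 4.76 and 4.61.

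The number of regions per unit of space, unlike their fold, was lower farther out. Shared narrow SEP3wt summits numbered 30.8 per Mb of space within 0.25 kb of a gene and 29.8 per Mb at 0.5 to 1 kb. Beyond the limit they numbered 25.3 per Mb at 1 to 1.5 kb, 25.4 at 1.5 to 2 kb, 18.2 at 2 to 3 kb and 8.36 at 3 to 5 kb. Past 5 kb the density was 0.930 per Mb, from 12 regions in 12.9 Mb, below the 9.71 per Mb of gene bodies. How much of the space beyond 5 kb can be mapped by short reads was not tested.

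Of 6538 gaps between protein-coding genes longer than 2 kb, 319 (4.88%) held a shared distal peak. The share was 1.42% for gaps of 2 to 3 kb, where little of the gap is over 1 kb from both genes, 5.69% at 3 to 5 kb, 8.72% at 5 to 10 kb and 8.14% at 10 to 20 kb. Of the 274 gaps over 20 kb, 5 (1.82%) held one. Chromosomes 1 to 5 held 85, 61, 63, 63 and 80 regions. Chromosome 1 had 24.1% of the regions and 27.5% of all SEP3wt peaks, and chromosome 2 had 17.3% and 14.3%.

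**Figure D5:**
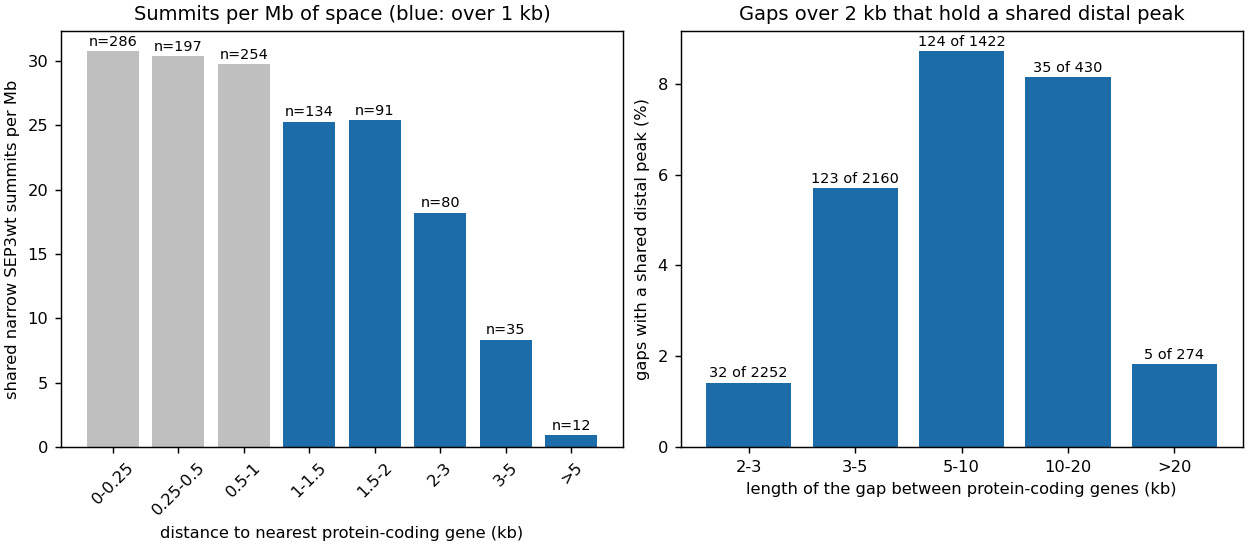
Left, shared SEP3wt summits up to 1000 bp wide per Mb of space (y axis) by distance to the nearest protein-coding gene in kb (x axis), with distances over 1 kb in blue and the number of peaks above each bar. Right, percent of gaps over 2 kb that hold a shared distal peak (y axis) by gap length in kb (x axis), with counts above each bar. Density is 25.3 and 25.4 per Mb up to 2 kb and 0.930 beyond 5 kb, and the share of gaps is highest at 8.72% for 5 to 10 kb.

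Most gaps held a single region. There were 287 gaps with 1 region, 31 with 2 and 1 with 3. The 33 neighbouring pairs lay a median of 1338 bp apart (316 to 6755 bp), and 11 of them were within 1000 bp. The gap with 3 regions separates DMC1, the meiotic recombinase gene, from APS1, an ATP sulfurylase gene, on chromosome 3. From the DMC1 side these were 8104238 to 8104614 (5.66 SEP3wt, 8.04 SEP3tet), 8106199 to 8106471 (4.03 and 7.99) and 8109299 to 8109728 (4.45 and 8.90). All 3 were above the median of their list in both lines.

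The 6 regions most remote from protein-coding genes were mostly weak. The farthest, 10.1 kb from the receptor-like kinase gene CRK40 and 11.7 kb from AT4G04555, lay on chromosome 4, 2278463 to 2278596, with folds of 3.00 (SEP3wt) and 2.82 (SEP3tet). Its summit was 587 bp from the pseudogene AT4G04547. One lay 9.62 kb from the nearer of AT5G35405 and the salt-tolerance kinase gene SOS2 on chromosome 5, 13614248 to 13614444 (3.27 and 4.47). Another lay 7.70 kb from the nearer of AT1G71870 and the sucrose transporter gene SUC1 on chromosome 1, 27046278 to 27046425 (2.83 and 3.89). These had SEP3wt folds below the median of 3.70, as did the region 6.60 kb from the nearer of AT1G29640 and AT1G29660 (3.05 and 4.04) and the one 6.36 kb from the nearer of TCP10 and CLE4 on chromosome 2, 13231282 to 13231789 (3.65 and 5.34). The sixth, 5.78 kb from TUB2 on one side and 7.46 kb from GTR2 on the other, on chromosome 5, 25175285 to 25175638, was stronger (5.49 and 6.40).

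Some genes beside a distal region also had a peak close by. For SEP3wt, a summit inside the gene or up to 1 kb from its edge was present at 121 of the 633 flanking genes (19.1%), against 8.60% of the genes that border a gap over 2 kb and flank no such region and 7.79% of all protein-coding genes. For SEP3tet summits the shares were 29.4%, 13.6% and 12.3%. No test was made of these shares, since neighbouring genes and peaks are not independent. Seen from the regions, 234 (66.5%) had no flanking gene with a close SEP3wt peak, 104 (29.5%) had 1 and 14 (3.98%) had 2. Among the organ identity genes, AP1, AP2, AG and SEP3 had a close SEP3wt peak and FUL had none, whereas AP1, FUL and SEP3 had a close SEP3tet peak and AP2 and AG had none. The SEP3wt peak close to AP2 (fold of 2.51) and the one inside AG (3.05) were weak, below the median of 3.38 of all SEP3wt peaks. In the same gap between genes, another SEP3wt peak of any kind accompanied 112 regions (31.8%) and another SEP3tet peak 158 (44.9%).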

How the data were processed

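ChIP-seq of Arabidopsis inflorescences from 2 rescue lines (6 samples) was analysed from 1 deposited peak list per line. The build TAIR10 and the programs MACS2 2.2.7.1, Bowtie2 2.2.5, Trimmomatic 0.36 and deepTools are listed per the submitters' processing notes. The way replicates were combined and any use of the mock as control are not given in these sources. The fold enrichment is the authors' ratio at the summit and the −log10 q is that of the authors' peak caller. The deposited score was 10 times that −log10 q, cut to a whole number, for all peaks; neither it nor the −log10 p entered a result. The depth is unknown.

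Coordinates are those of the peaks, counted from 1. Genes came from a RefSeq table of assembly TAIR10.1, matched by locus, with 27444 protein-coding nuclear genes and no strand or exons. To check the joint use of both builds, all positions were moved by 1 to 20 kb in 10 shifts. Of the shared summits of peaks up to 1000 bp wide, 36.5% lay in gene bodies without a shift and 53.6% to 64.3% with one. Flanking genes are the first protein-coding genes to the left and right of a summit, and ranks are among the 352 regions within 1 list. Peak lists were read with Python 3.11.15, pandas 2.3.3 and numpy 2.4.6. The functions for overlap and for distance with flanking genes were tested on simulated data.

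Members and gene lists were chosen with earlier results of these data known. Named are genes beside the 12 highest SEP3wt folds, all listed organ identity genes, up to 6 regions per other list and 4 per family by SEP3wt fold, the 6 farthest regions, gaps with at least 3, up to 8 regions at non-coding genes, and 3 on either side of the distance limit. Others are said to be chosen after their values were seen. The result of 1 family is not reported here. Planned counts of CArG boxes were not made, since no genome sequence was used here. Alternative widths, distances, overlaps, q limits and gene classes were tried.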

Additional observations from a re-analysis of the deposited data

How the results depend on the processing

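Of 85 alternative values, 65 stayed within 1.5 times the count or within the exact 95% binomial interval of the median, and 20 did not. The 352 regions became 606 at over 500 bp from genes, 127 at over 2000 bp, 47 at over 3000 bp, 221 with a −log10 q of at least 5 in both lists and 113 with at least 10. They were 301 with an overlap of 50% of each peak, 334 with summits within 100 bp, 269 counting genes of every type, 355 with no width limit, 318 up to 500 bp, 347 with both summits distal and, in an alternative chosen after seeing the data, 353 with the summit counted from 0. With a −log10 q of at least 5 or 10, the median fold was 4.35 or 5.28 (SEP3wt) and 5.48 or 6.64 (SEP3tet) and the SEP3wt width 329 or 410 bp; with at least 10 the summit separation was 16 bp. The width was 275 bp with 50% overlap. The median distance was 1.15, 2.69 and 3.91 kb under the limits of 500, 2000 and 3000 bp, as the limit fixes. The 33 listed genes became 15 over 2000 bp, 8 over 3000 bp, 17 with a −log10 q of at least 10 and 19 by nearest gene. A stricter distance or q keeps fewer peaks by construction.

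No paired analysis was possible because each line has 1 pooled list with no values per replicate, and leaving out a replicate was not possible either. Alternatives on CArG boxes were not run. The unknown depth limits every comparison of peak numbers and folds between the lists.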

Other observations

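The values below were chosen after they were seen, follow no fixed list and stand for single regions. BRI1, the brassinosteroid receptor gene, had a region 1.58 kb away on chromosome 4, 18322678 to 18323180, with folds of 6.42 (SEP3wt) and 9.24 (SEP3tet). CPD, which encodes a cytochrome P450 of brassinosteroid synthesis, had a pair on chromosome 5, at 1708379 to 1708832 (5.44 and 4.33) and at 1711480 to 1711638 (2.83 and 3.94). Regions beside BRL3 (3.32 and 4.86) and BAS1 (2.67 and 3.80), which act in perception and breakdown of brassinosteroids, had SEP3wt folds below the median. RGL1, a DELLA repressor gene of gibberellin response, had a region 3.91 kb away on chromosome 1, 24743840 to 24744464 (7.39 and 10.3). GA20OX2, a gibberellin synthesis gene, lay 4.64 kb from chromosome 5, 21061403 to 21062037 (5.44 and 7.46), with PGM nearer at 1.78 kb. Regions beside the gibberellin genes GA20OX3 (3.48 and 4.04) and GA2OX2 (3.27 and 4.13) were weaker, and that beside GA1 had folds of 4.68 and 2.83. The KNOX gene KNAT3 lay 9.08 kb from a region with folds of 6.63 and 7.36, with AT5G25210 nearer at 1.05 kb. ATC, a relative of the floral repressor TFL1, lay 1.48 kb from one with 6.20 and 9.34.

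Over all 352 regions, the largest drop in fold rank from the SEP3wt to the SEP3tet list was that of the farther AP2 region, from 57th to 317th. The GA1 region followed, from a tied 82.5 to 339.5. By −log10 q the farther AP2 region fell less, from 50 to 175. The GA1 region fell from a tied 88 to 340.5 by that measure. The largest rises were those of a region between KCS10 and 3BETAHSD/D2, from a tied 323 to 51.5 (folds of 2.78 and 7.26), and of the ERF38 region, from 338 to 68.5. The former is 1 of the 4 regions that share their SEP3tet peak with another. That SEP3tet summit lay 268 bp from its SEP3wt summit and only 48 bp from that of the neighbouring region (SEP3wt fold of 4.08). The 7.26 thus stands nearer to the neighbour, and the rise cannot be read as one of this region. Whether such differences in rank exceed the spread between replicates was not tested.

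Of 327 distal SEP3tet peaks up to 1000 bp wide with no SEP3wt overlap, 49 (15.0%) lay in a gap that also held a shared distal peak, in 43 of the 319 such gaps.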
